A study of Arabidopsis thaliana with 12 samples.

Results

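The 9 genes described here encode the iron stores and iron sinks of Arabidopsis thaliana cells: the ferritins FER1, FER2, FER3 and FER4, the vacuolar iron transporters VIT1, VTL1, VTL2 and VTL5, and the iron-sulfur protein NEET. They were taken by locus identifier from the deposited tables of counts and of FPKM (counts scaled to a gene length and to library total), 9 of 32678 identifiers. The libraries came from shoots of wild-type Col seedlings and of clf seedlings, which lack normal CURLY LEAF (CLF), a histone methyltransferase of Polycomb repressive complex 2, a complex that represses genes by trimethylating lysine 27 of histone H3. Seedlings of both genotypes germinated and grew for 12 days on B5 medium, then spent 3 days on medium in which iron was sufficient or deficient. The temperature was 22 °C and each day had 16 h light and 8 h dark. The 4 groups are wild type on sufficient iron, wild type on deficient iron, clf on sufficient iron and clf on deficient iron, with 3 libraries each. The clf allele is not given in the sources used here, and no label says whether the replicates were grown as separate cultures, so every p-value rests on the spread between these libraries alone, and that spread may be technical.

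Free iron damages cells through reactions with oxygen, so plants hold iron that is not in use in closed compartments. Ferritin is a protein shell that stores iron as a mineral, in plants mostly inside plastids. FER1, FER3 and FER4 are the ferritins of leaves and flowers, and FER2 is that of seeds. Transporters of the VIT family move iron from the cytosol into the vacuole: VIT1 loads vacuoles of the embryo, and the VTL proteins are its shorter relatives, able to carry iron into vacuoles when made in yeast. NEET carries an iron-sulfur cluster in plastids and mitochondria and takes part in iron and cluster handling. Iron excess is known to raise FER1, and the transcription factors PYE and ILR3 are known repressors of several of these genes under iron deficiency.

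In the TAIR10.1 annotation the ferritin genes lie apart from each other. FER1 (AT5G01600) is on chromosome 5 from 227953 to 230051 on the minus strand. FER2 (AT3G11050) is on chromosome 3 from 3463477 to 3465506 on the plus strand, and FER3 (AT3G56090) on the same chromosome from 20813904 to 20816035 on the minus strand. FER4 (AT2G40300) is on chromosome 2 from 16831109 to 16833294 on the minus strand. Each ferritin gene has 8 exons, and their coding sequences are 71.5% to 79.8% identical in pairs, with FER3 and FER4 the closest pair. VIT1 (AT2G01770) is on chromosome 2 from 334663 to 336462 on the minus strand, with 4 exons. VTL1 (AT1G21140, chromosome 1 from 7404328 to 7405426) and VTL2 (AT1G76800, chromosome 1 from 28829243 to 28830278) are on the plus strand with 1 exon each. VTL5 (AT3G25190) is on chromosome 3 from 9174398 to 9175866 and NEET (AT5G51720) on chromosome 5 from 21009347 to 21010345, both on the plus strand with 2 exons. No pair of ferritins and no pair of VIT family members shared a stretch of 50 bases in the annotated transcripts.

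The 300 bases before each start codon were searched for 3 elements chosen because they are known from work on ferritin promoters. Finding them in ferritin genes is therefore no test of enrichment, and the shares of all windows are given for scale only. The G-box, CACGTG, which reads the same on both strands, was present before all 4 ferritin start codons and before none of the 5 other genes. It was present in 6.23% of the 27443 windows of protein-coding genes searched the same way. The sites are shown 5′ to 3′ on the gene's strand, from the TAIR10.1 sequence, with the element in capitals.
FER1 G-box, chr5:229720-229749: atatccaccctcCACGTGgatctcaatcca
FER2 G-box, chr3:3463496-3463525: ttctcctctttcCACGTGtccaacaaacag
FER3 G-box, chr3:20816094-20816123: atcgtatccatcCACGTGtcaacaatccac
FER4 G-box, chr2:16833346-16833375: atctcgtacgtaCACGTGtctctcatccgc
FER1 iron-dependent element, chr5:229765-229794: ttggatgtagCACGAGGCCgccacacgccc
FER1 P1BS, chr5:229803-229832: taacgtggatcGAATATCCtcacgttcaca

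The first base of the G-box stood 143 bases before the start codon in FER1 and in FER2, 127 in FER3 and 149 in FER4. The core of the iron-dependent regulatory sequence of FER1 (searched as CACGAGNCC on both strands) was present in FER1 alone among the 9 genes and in 0.211% of all windows. The P1BS element (GNATATNC, searched on both strands), the binding sequence of the phosphate starvation factor PHR1, was also present in FER1 alone and in 5.23% of all windows. The 3 elements do not overlap in FER1. In FER1 and FER2 these sites lie inside the annotated transcript, which starts 457 and 174 bases before the start codon, and in FER3 and FER4 they lie ahead of the annotated start. A match is a description of these letters only.

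The 120 bases before the annotated starts of FER3 and FER4 are shown because these genes are the closest pair in sequence and had different iron values in these libraries. The windows were identical at 79 of 106 aligned bases (74.5%), with the G-box in capitals in both.
FER3, chr3:20816036-20816155: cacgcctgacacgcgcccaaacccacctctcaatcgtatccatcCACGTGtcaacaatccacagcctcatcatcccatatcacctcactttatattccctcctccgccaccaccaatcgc
FER4, chr2:16833295-16833414: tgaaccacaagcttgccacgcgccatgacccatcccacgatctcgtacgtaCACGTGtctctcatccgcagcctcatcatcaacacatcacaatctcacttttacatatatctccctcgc

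The depth was 16092041 to 29400813 counts a library, and the 6 libraries on deficient iron were deeper than the 6 on sufficient iron. CLF was at 13.1 to 17.1 CPM (counts scaled to a common library size) in wild type and at 3.09 to 5.40 CPM in clf. A tissue label and the extraction text name root, while the source name, titles and design text name shoot. The summed level of 6 leaf markers (RBCS1A, CA1, LHCB1.3, RCA, LHCB2.1 and GLDP1) was 48730 to 99230 CPM and that of 9 root markers 2.104 to 15.03 CPM. Seed markers, 7 genes, summed to 0 to 3.20 CPM, and 4 to 7 of them were at 0 in each library. The highest sum was that of wild type on deficient iron replicate 2, where SESA1, a seed storage protein gene, had 74 counts (3.04 CPM). In each group 1 library had far more TOC1, an evening gene of the clock, than the other 2 libraries: wild type on sufficient iron replicate 3 (59.6 CPM), wild type on deficient iron replicate 2 (33.2), clf on sufficient iron replicate 3 (34.9) and clf on deficient iron replicate 3 (30.2), against 9.44 to 13.0 CPM in the remaining 8. The morning gene LHY was lowest in its group in the same 4 libraries.

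Of the 9 genes, 7 had enough counts to be tested. FER2 and VIT1 did not pass the filter on low counts, and VTL1 and VTL5 passed it through their values on sufficient iron. On sufficient iron NEET had the highest level per length in wild type, 91.8 ± 14.7 FPKM (SD, n = 3), followed by FER1 at 54.7 ± 25.1, FER3 at 47.6 ± 57.6 and FER4 at 16.5 ± 3.14 FPKM. The libraries of each of these neighbours in the order overlapped. All 3 VTL genes lay below FER4 without overlap: VTL5 at 3.15 ± 1.36, VTL2 at 1.76 ± 0.283 and VTL1 at 0.745 ± 0.285 FPKM. VTL5 and VTL2 overlapped. On deficient iron the order in wild type was FER3 at 13.1 ± 1.79, FER1 at 3.65 ± 0.224, NEET at 2.33 ± 0.479 and FER4 at 1.84 ± 0.397 FPKM, with overlap only between NEET and FER4 among these 4 genes. The lengths behind the deposited FPKM differ from the annotated transcripts, most for NEET (498 against 743 bases). With the annotated lengths, an alternative chosen after seeing the data, these 4 genes stood in the same order in wild type at each iron level, with NEET at 61.5 ± 9.86 and 1.56 ± 0.321 FPKM and FER4 at 13.9 ± 2.65 and 1.55 ± 0.334 FPKM.

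**Figure D1:**
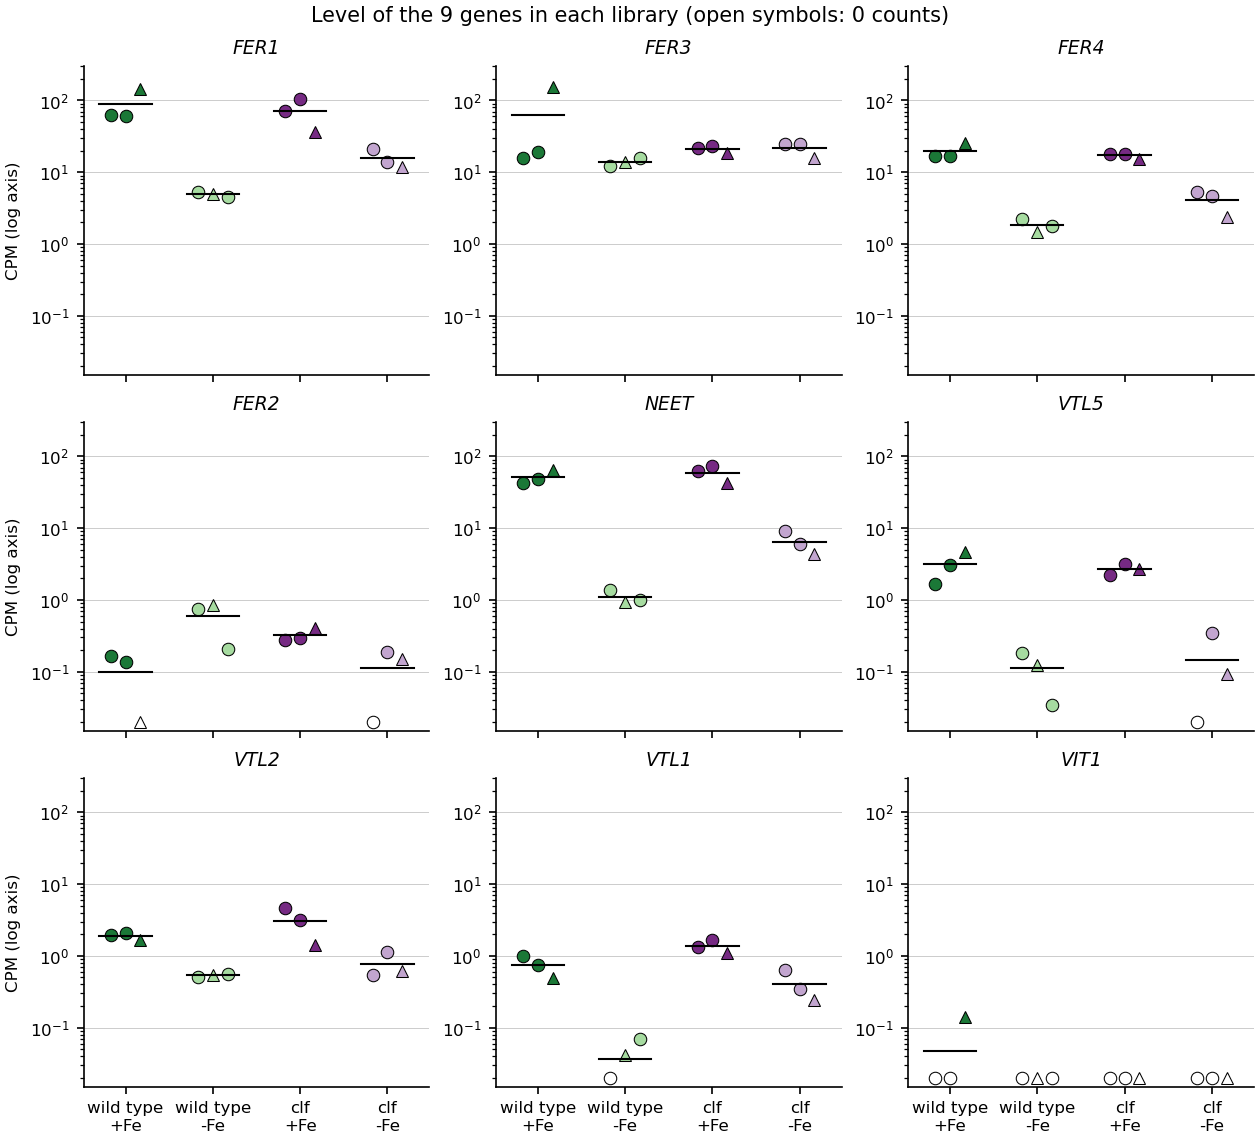
Level of each gene in CPM on a log axis in the 4 groups, where points are libraries, lines are group means of 3 libraries, +Fe and -Fe are sufficient and deficient iron, triangles mark the library with the most TOC1 in its group and open symbols at the foot mark 0 counts. FER1, FER4, NEET, VTL1, VTL2 and VTL5 were lower in every deficient library than in every sufficient library of the same genotype, and the FER3 value of 155.5 CPM stands alone.

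Iron deficiency lowered most of these genes in wild type. NEET, FER1 and FER4 fell strongly from high levels, VTL1, VTL2 and VTL5 fell from low levels, and FER3 did not pass the test. In counts, 6 of the 7 tested members were called lower and none higher (edgeR quasi-likelihood test, Benjamini-Hochberg adjusted p under 0.05 over 19148 genes), while 4.52% of all genes tested were called lower. The count is a description: VTL1 and VTL5 entered it through the group in which they were high, and FER2, which had more counts on deficient iron, did not enter it. The median log2 fold change of the 7 was -4.14, beside 0.0075 over all genes tested.

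In wild type NEET was at 42.0, 48.9 and 64.1 CPM on sufficient iron and at 1.36, 0.944 and 0.999 CPM on deficient iron. Every deficient library was below every sufficient one, at a log2 fold change of -5.54 (SE 0.35, edgeR adjusted p = 9.63e-06), or 46.6-fold. FER1, the main leaf ferritin, was at 62.9, 61.1 and 142.9 CPM on sufficient iron and at 5.30, 4.93 and 4.58 CPM on deficient iron. The deficient libraries were tight and far below all sufficient ones, with a log2 fold change of -4.17 (SE 0.46, edgeR adjusted p = 0.000455), or 18.0-fold. FER4, a ferritin found in mitochondria as well as plastids, was at 16.7, 16.9 and 25.5 CPM on sufficient iron and at 2.25, 1.48 and 1.79 CPM on deficient iron. The groups again did not overlap, and the log2 value was -3.41 (SE 0.31, edgeR adjusted p = 0.000119), or 10.7-fold.

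In wild type FER3, the ferritin closest to FER4, was at 16.0, 19.4 and 155.5 CPM on sufficient iron and at 12.4, 14.1 and 15.7 CPM on deficient iron. The groups did not overlap, but the gap between 15.7 and 16.0 CPM is small and 1 library, replicate 3, is far above the rest. Deficient over sufficient iron gave a log2 value of -2.18 (SE 0.71, edgeR adjusted p = 0.0838). Without that library the log2 fold change was -0.33 (adjusted p = 0.378), and without wild type on sufficient iron replicate 1 it was -2.63 (adjusted p = 0.0388). Replicate 3 is also the library with the most TOC1 of all 12, and the part of this in the FER3 value was not tested.

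The vacuolar transporters were scarce. In wild type VTL5 was at 1.66, 3.05 and 4.69 CPM on sufficient iron and at 0.184, 0.123 and 0.0344 CPM on deficient iron, with 142 counts against 9 in all. The groups did not overlap, and the log2 value was -4.72 (SE 0.80, edgeR adjusted p = 0.00507). VTL1 had 18, 11 and 7 counts on sufficient iron (0.995, 0.744 and 0.490 CPM) and 0, 1 and 2 counts on deficient iron (0, 0.0411 and 0.0689 CPM). The ratio of pooled counts, scaled for depth, was 20.5 with an exact 95% interval for counting error of 6.47 to 104, and the call passed (edgeR adjusted p = 0.00455). VTL2 was at 1.93, 2.097 and 1.68 CPM on sufficient iron and at 0.516, 0.534 and 0.551 CPM on deficient iron. Its groups lay apart with little spread, at a log2 fold change of -1.82 (SE 0.43, edgeR adjusted p = 0.0262), but the call was lost without wild type on sufficient iron replicate 1 (0.0655) or 2 (0.0763) and without wild type on deficient iron replicate 1 (0.0904), 2 (0.0594) or 3 (0.0791).

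FER2 and VIT1 were nearly silent. In wild type FER2 had 3, 2 and 0 counts on sufficient iron and 20, 21 and 6 on deficient iron, and it was higher in every deficient library, the opposite order from the 7 tested members. The ratio of pooled counts was 5.50 (exact 95% interval 2.20 to 17.7, counting error only). FER2 was called higher by limma on log2(FPKM + 1), which also tests genes of few counts (0.54, adjusted p = 0.04). That setting leaned towards higher calls, with 2184 genes called higher and 403 lower and a median log2 fold change of 0.1113. The main edgeR fit called 882 higher and 865 lower, with a median of 0.0075. With log2(FPKM + 0.1) FER2 was not called (limma adjusted p = 0.054), nor by edgeR without the filter (0.176). Its highest library, replicate 2 with 21 counts, is also the one with the most SESA1. Replicate 1, with 20 counts, had a seed marker sum of 0.368 CPM, with 6 of the 7 markers at 0. The part of seed transcripts in the FER2 value was not tested. VIT1 had 2 counts in wild type on sufficient iron replicate 3 and 0 in the other 11 libraries. With 0 counts over a group of 3 libraries, the limit that 3 counts allow is 0.0372 CPM in wild type on deficient iron, 0.0546 CPM in clf on sufficient iron and 0.0345 CPM in clf on deficient iron.

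In these bulk libraries fewer cells of a type and less RNA per cell cannot be told apart. The summed leaf markers also moved with iron: in wild type they were at 88840 to 99230 CPM on sufficient iron and at 56190 to 59860 CPM on deficient iron. In wild type 3 of the 6 (CA1, LHCB1.3 and LHCB2.1) were called lower, beside 4.52% of all genes tested. RBCS1A and RCA were not called, and GLDP1 had a log2 fold change of 0.33 (edgeR adjusted p = 0.533). In clf the sums were at 70660 to 79090 CPM on sufficient iron, below every wild-type library on sufficient iron, and at 48730 to 59340 CPM on deficient iron. For iron in clf 2 of the 6 (CA1 and LHCB2.1) were called lower, beside 0.768% of all genes tested. LHCB1.3 is the largest part of the sum, with means of 42630 CPM in wild type and 26580 CPM in clf on sufficient iron. Between genotypes on sufficient iron none of the 6 was called, beside 4.91% of all genes tested called in either direction. Their log2 fold changes ran from -0.68 (LHCB1.3) to 0.34 (GLDP1), with a median of -0.08. The part of these leaf marker shifts in the values of the 9 genes was not tested.

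In clf the same 3 days without iron lowered NEET, FER4, FER1, VTL5 and VTL2. This is 5 of the 7 tested members (edgeR adjusted p under 0.05), beside 0.768% of all genes tested called lower, with a median log2 fold change of -2.07 over the 7 and -0.0213 over all genes tested. The count is again a description: VTL5 entered it through the iron level at which it was high, and FER2 and VIT1 did not enter it. VTL1 and FER3 did not pass. The summed leaf markers fell here too, as given above. The root markers summed to 6.01 to 15.03 CPM on sufficient iron and to 2.104 to 6.13 CPM on deficient iron in clf. Their median log2 fold change was -1.28, and none of the 7 tested was called. The part of the root marker shift in the values of the 9 genes was not tested. The wild-type and clf iron responses use separate libraries.

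NEET was at 63.5, 73.1 and 42.1 CPM in clf on sufficient iron and at 9.17, 5.97 and 4.36 CPM on deficient iron. The groups lay apart, at a log2 fold change of -3.20 (SE 0.31, edgeR adjusted p = 0.000374), or 9.19-fold. FER4 was at 17.9, 18.1 and 15.4 CPM on sufficient iron and at 5.31, 4.65 and 2.35 CPM on deficient iron, without overlap. Deficient over sufficient iron gave a log2 value of -2.07 (SE 0.29, edgeR adjusted p = 0.00685), or 4.19-fold. FER1 was at 72.5, 104.6 and 36.1 CPM on sufficient iron and at 21.0, 14.1 and 11.9 CPM on deficient iron. Its sufficient libraries were widely spread but all above the deficient ones, at a log2 fold change of -2.18 (SE 0.42, edgeR adjusted p = 0.033), or 4.55-fold.

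VTL5 was at 2.24, 3.20 and 2.67 CPM in clf on sufficient iron and at 0, 0.346 and 0.0915 CPM on deficient iron, a log2 fold change of -4.08 (SE 0.75, edgeR adjusted p = 0.0272). VTL2 was at 4.59, 3.20 and 1.44 CPM on sufficient iron and at 0.540, 1.13 and 0.610 CPM on deficient iron, a log2 fold change of -1.998 (SE 0.42, edgeR adjusted p = 0.0444). Both genes were lower in every deficient library. VTL1 was at 1.31, 1.69 and 1.08 CPM on sufficient iron and at 0.630, 0.346 and 0.244 CPM on deficient iron. The VTL1 groups also lay apart, yet its log2 fold change of -1.76 (SE 0.50) had an edgeR adjusted p of 0.123. It was called by DESeq2 (adjusted p = 0.0296), by limma on log2(FPKM + 1) (0.0362) and by edgeR with a term for the libraries with the most TOC1 (0.0286). FER3 was at 21.5, 23.4 and 18.6 CPM on sufficient iron and at 24.7, 24.9 and 16.0 CPM on deficient iron. The FER3 groups overlapped, at a log2 fold change of 0.05 (95% interval -1.46 to 1.56, edgeR adjusted p = 0.988). FER2 had 5, 5 and 8 counts on sufficient iron and 0, 6 and 5 on deficient iron, a ratio of pooled counts of 2.59 in favour of sufficient iron (exact 95% interval 1.16 to 6.06, counting error only), the reverse of its order in wild type.

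Same-numbered clf replicates correlated in their deviations across iron levels at 0.176, 0.387 and 0.509. Differently numbered pairs of replicates 1 and 2 reached 0.267 and 0.211, so these values do not show pairing by number. Replicate 3 is the library with the most TOC1 in both clf groups. With the replicate number as a block 3 of the 7 were called, and FER1 (edgeR adjusted p = 0.0683) and VTL2 (0.0599) were lost. Leaving out 1 library of the 12 left 2 to 4 calls: NEET and FER4 were called in all 12 such fits, while FER1 was lost in 7 (largest adjusted p 0.144, without clf on deficient iron replicate 2), VTL5 in 6 (0.0962, without clf on sufficient iron replicate 2) and VTL2 in 11 (0.18, without clf on deficient iron replicate 1).

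**Figure D2:**
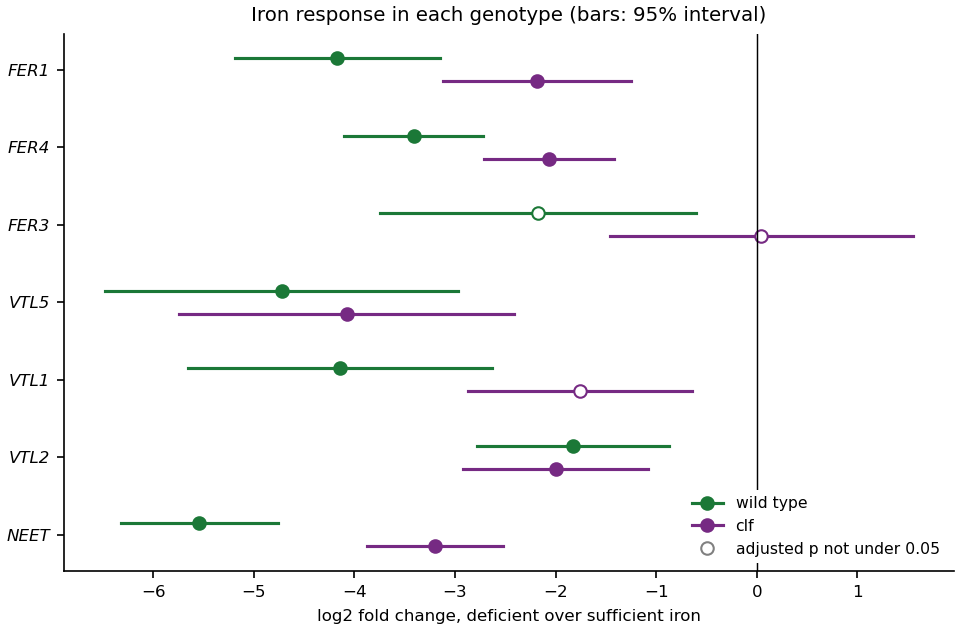
Log2 fold change of deficient over sufficient iron in wild type and in clf for the 7 tested genes, where bars are 95% intervals and open points have an adjusted p that is not under 0.05. NEET lies at -5.54 in wild type and -3.20 in clf, FER1 at -4.17 and -2.18, FER4 at -3.41 and -2.07, and VTL2 at -1.82 and -1.998.

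Transcripts of the 4 ferritins can be added per length. In wild type the sum was 68.7, 70.0 and 218 FPKM on sufficient iron and 18.3, 18.6 and 20.5 FPKM on deficient iron. In clf it was 87.9, 109.5 and 53.4 FPKM on sufficient iron and 43.4, 40.9 and 27.8 FPKM on deficient iron. Every deficient library was below every sufficient one, and every deficient clf library was above every deficient wild-type one. No test was run on these sums.

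The make-up of the ferritin transcripts also differed. FER1 gave 16.99% to 21.3% of the sum in wild type on deficient iron and 27.2% to 35.5% in clf on deficient iron, against 38.4% to 65.9% in the 6 sufficient libraries. FER3 gave 52.4% to 73.0% in the 6 deficient libraries. In the sufficient libraries FER3 gave 18.5% to 28.8%, apart from wild type replicate 3 at 52.4%. FER2 gave at most 4.63% in any library.

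**Figure D3:**
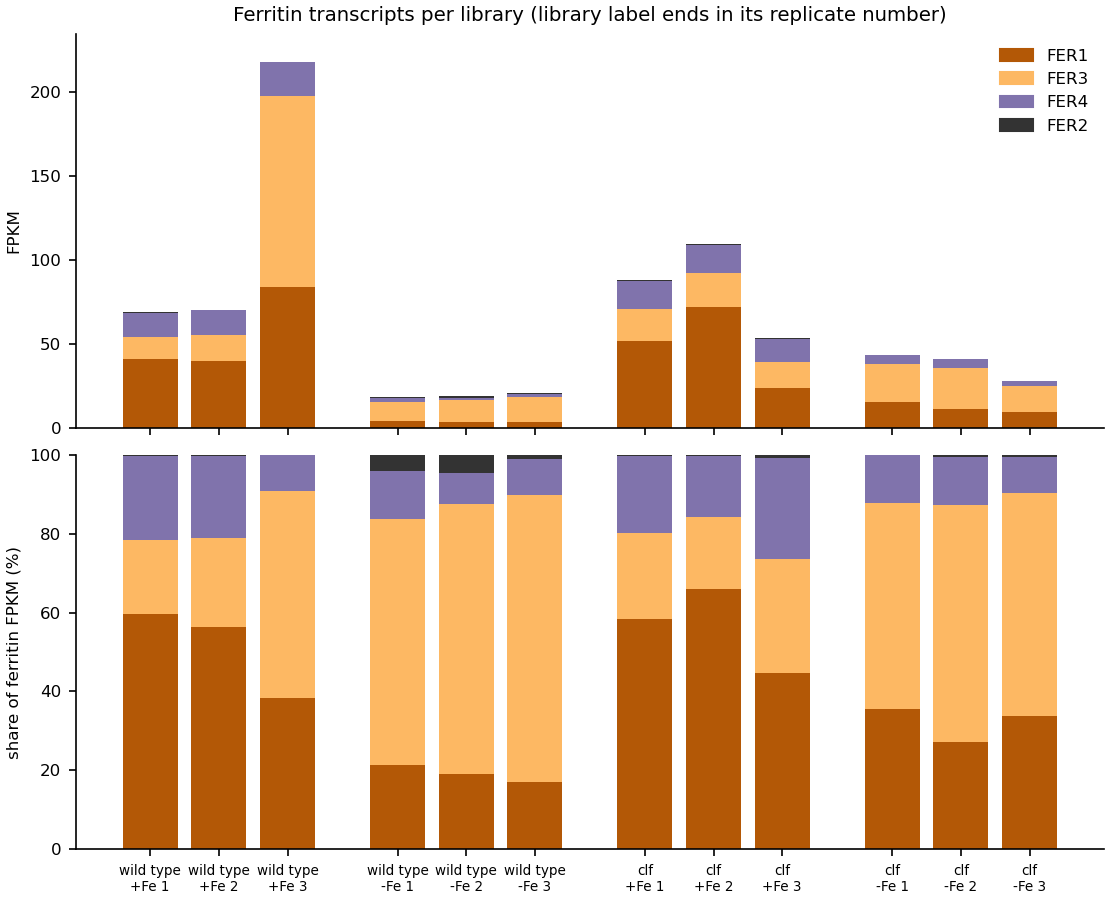
Ferritin transcripts in each of the 12 libraries as stacked bars, in FPKM above and as a share of the ferritin sum in percent below, with +Fe and -Fe for sufficient and deficient iron. FER3 makes up the largest part of the bar in the 6 deficient libraries and in wild type on sufficient iron replicate 3, whose sum of 218 FPKM is the highest.

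The VIT family members added in the same way gave in wild type 4.62, 5.96 and 6.53 FPKM on sufficient iron and 0.778, 0.756 and 0.741 FPKM on deficient iron. In clf they gave 8.85, 8.68 and 5.41 FPKM on sufficient iron and 1.31, 2.19 and 1.12 FPKM on deficient iron. The deficient wild-type libraries were the lowest of all, and each was below every deficient clf library.

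On sufficient iron, loss of CLF left all 7 tested members without a call. No gene passed by edgeR or by DESeq2, and 1 member, FER3, had an unadjusted edgeR p under 0.05 (log2 fold change -1.59, adjusted p = 0.251), while 4.91% of all genes tested were called in either direction. The median log2 fold change of the 7 was -0.20, beside -0.0143 over all genes tested. The log2 fold change was -0.32 for FER1 (95% interval -1.22 to 0.57), -0.20 for FER4 (-0.81 to 0.42) and 0.20 for NEET (-0.41 to 0.82). VTL1 was higher in every clf library, at a log2 fold change of 0.85 (95% interval -0.24 to 1.95, edgeR adjusted p = 0.4). VTL2 was at 0.69 (-0.20 to 1.58) and VTL5 at -0.20 (-1.57 to 1.16) on the same scale, with overlapping groups.

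The FER3 value again rests on wild type replicate 3. Without the 4 libraries with the most TOC1, the log2 fold change of clf over wild type on sufficient iron was 0.34 for FER3 (edgeR adjusted p = 0.191) and 0.51 for FER1 (0.135), the other direction from the full set, and 0.59 for NEET (0.0641). FER2 had 5 counts in wild type and 18 in clf on sufficient iron, a ratio of 3.09 (exact 95% interval 1.11 to 10.7, counting error only).

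On deficient iron, clf held more of 4 of the 7 tested members than wild type: NEET, VTL1, FER1 and FER4 were called higher and none lower (edgeR adjusted p under 0.05), beside 4.01% of all genes tested called higher. The median log2 fold change of the 7 was 1.15, beside -0.0146 over all genes tested. This comparison shares its wild-type and its clf libraries with the iron responses above, and its count is a description too. The root markers summed to 4.43 to 8.58 CPM in wild type and to 2.104 to 6.13 CPM in clf on deficient iron. Of the 7 tested, 1 was called lower in clf, COBL9 (50 counts against 7, edgeR adjusted p = 0.0432), beside 2.46% of all genes tested. The summed leaf markers overlapped between the genotypes here. The part of either in the values of the 9 genes was not tested.

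NEET was at 0.944 to 1.36 CPM in wild type and at 4.36 to 9.17 CPM in clf on deficient iron. The groups lay far apart, at a log2 fold change of 2.55 (SE 0.32, edgeR adjusted p = 0.00185), or 5.85-fold. FER1, at 4.58 to 5.30 CPM in wild type and 11.9 to 21.0 CPM in clf, was higher in clf at a log2 fold change of 1.66 (SE 0.42, edgeR adjusted p = 0.043), or 3.16-fold. FER4, at 1.48 to 2.25 CPM in wild type and 2.35 to 5.31 CPM in clf, had its lowest clf library close to its highest wild-type library. Its log2 value, clf over wild type, was 1.15 (SE 0.30, edgeR adjusted p = 0.0457), or 2.22-fold. VTL1 had 3 counts over the wild-type libraries and 14, 11 and 8 in the clf libraries, a ratio of 10.2 (exact 95% interval 3.20 to 52.0, counting error only), and was called (edgeR adjusted p = 0.0208).

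The other tested members did not pass. FER3 was higher in every clf library, at a log2 fold change of 0.63 (95% interval -0.88 to 2.15, edgeR adjusted p = 0.669). Without the 4 libraries with the most TOC1 the FER3 value was 0.82 (edgeR adjusted p = 0.00426) and called, together with the 4 genes above. Its SE was 0.69 with all libraries and 0.15 without these 4. They include wild type on sufficient iron replicate 3, at 155.5 CPM, which is outside this comparison but shares its estimate of spread. With a term for the 4 libraries in place of leaving them out, FER3 was at 0.69 (edgeR adjusted p = 0.508). The part of TOC1 in this was not tested. VTL2 was at 0.52 (95% interval -0.43 to 1.47) and VTL5 at 0.44 (-1.53 to 2.42), with overlapping groups. FER2 ran the other way, with 47 counts in wild type and 11 in clf on deficient iron, a ratio of 4.61 in favour of wild type (exact 95% interval 2.36 to 9.85, counting error only).

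NEET was called in all 12 fits that left out 1 library. FER1 was lost without wild type on deficient iron replicate 1 (edgeR adjusted p = 0.116), 2 (0.103) or 3 (0.126), clf on deficient iron replicate 1 (0.156) or 2 (0.0977), wild type on sufficient iron replicate 1 (0.0505) or clf on sufficient iron replicate 1 (0.0626). FER4 was called only in the fits that left out replicate 3, either that of clf on deficient iron or that of wild type on sufficient iron, with adjusted p up to 0.171 otherwise. VTL1 was lost without replicate 1 or 2 of either deficient group, at 0.0531 and 0.0593 for wild type and 0.0777 and 0.0565 for clf.

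**Figure D4:**
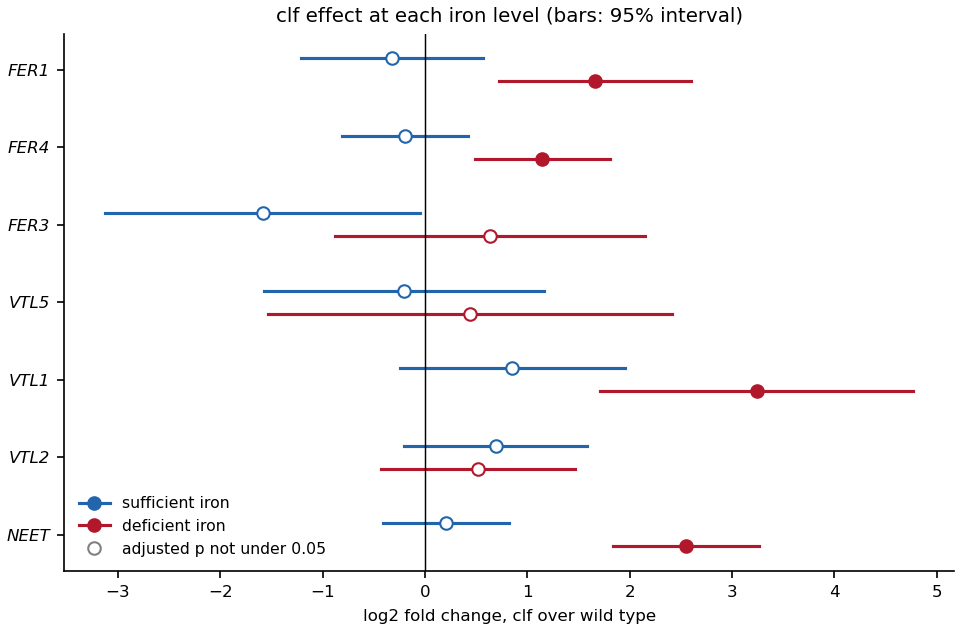
Log2 fold change of clf over wild type on sufficient and on deficient iron for the 7 tested genes, where bars are 95% intervals and open points have an adjusted p that is not under 0.05. On sufficient iron all 7 points are open, and on deficient iron NEET lies at 2.55, VTL1 at 3.24, FER1 at 1.66 and FER4 at 1.15.

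The test of whether iron deficiency acted differently in clf is the interaction, the log2 response of clf to iron less that of wild type. No member was called by edgeR over all genes tested, where 1 gene was called (0.00522%). At an unadjusted p under 0.05 the difference was above 0 in 5 of the 7 members, beside 3.43% of all genes tested. The count is a description, since all 7 members use the same 12 libraries. VTL1, with 3 counts in wild type on deficient iron, entered it through its values on sufficient iron. With 1 library left out the FER3 difference ranged from 0.3774 to 2.6813. It was 2.34 for NEET (95% interval 1.41 to 3.28, edgeR adjusted p = 0.201), 1.99 for FER1 (0.70 to 3.27, adjusted p = 0.511) and 1.35 for FER4 (0.45 to 2.25, adjusted p = 0.511). VTL1 was at 2.39 (0.50 to 4.27, adjusted p = 0.619) and FER3 at 2.22 (0.06 to 4.38, adjusted p = 0.665). VTL2 at -0.17 (-1.50 to 1.16) and VTL5 at 0.65 (-1.75 to 3.05) had intervals on both sides of 0.

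NEET was called for the interaction by DESeq2 (2.36, adjusted p = 0.000298), by edgeR without the 4 libraries with the most TOC1 (2.08, adjusted p = 0.0229) and by edgeR with a term for those libraries (2.37, adjusted p = 0.0324). No other member was called in any of these fits. Among them, without the 4 libraries the interaction of FER4 was 1.20 (adjusted p = 0.0598), that of FER1 was 1.31 (0.101) and that of FER3 fell to 0.47 (0.364).

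The regulators known to act on these genes were read from a list of 13 genes, 12 of them tested. In wild type on deficient iron 4 were called higher and 1 lower, beside 4.61% and 4.52% of all genes tested. The median log2 fold change of the 12 was 0.29, beside 0.0075 over all genes tested. BTS, an E3 ubiquitin ligase that marks bHLH factors for removal, rose from 101.6 ± 4.03 to 1188 ± 154 CPM (SD, n = 3), a log2 fold change of 3.55 (edgeR adjusted p = 1.41e-06). BTSL1, its relative, rose by 3.83 (4.26e-05) and PYE, a repressor of iron genes, by 2.79 (0.000567) on the same scale. bHLH115, an activator of the deficiency response, rose by 0.48 (0.0209) and bHLH121 fell by 0.53 (0.0394). ILR3, a partner of PYE at ferritin genes, had overlapping groups, at 74.9 ± 4.89 and 74.7 ± 2.22 CPM, with a log2 fold change of 0.00 (95% interval -0.24 to 0.23).

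In clf 3 of the 12 rose on deficient iron: BTS by 3.02, PYE by 2.85 and BTSL1 by 2.87 (edgeR adjusted p = 5.92e-06, 0.00145 and 0.000614), and none fell. Over all genes tested 0.752% were called higher and 0.768% lower in clf. The median of the 12 was 0.15, beside -0.0213 over all genes tested. Between genotypes on sufficient iron none of the 12 was called, beside 4.91% of all genes tested called in either direction. On deficient iron BTSL1 was lower in clf, at 8.97 ± 1.49 against 21.2 ± 4.77 CPM and a log2 fold change of -1.24 (edgeR adjusted p = 0.0193). This is 1 of the 12 called lower and 0 higher, beside 2.46% and 4.01% of all genes tested. BTS, at 805 ± 93.3 against 1188 ± 154 CPM, was lower in every clf library, with a log2 fold change of -0.56 that did not pass (adjusted p = 0.0501). PYE (-0.40, adjusted p = 0.507) and ILR3 (0.24, adjusted p = 0.245) did not pass either. The interaction was called for none of the 12.

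A list of 15 other genes of vacuolar and plastid iron traffic, 12 of them tested, holds the vacuolar exporters. NRAMP4, which exports iron from the vacuole, rose in wild type from 32.2 ± 4.43 to 229.6 ± 17.8 CPM and in clf from 37.2 ± 3.60 to 189.7 ± 15.8 CPM, log2 fold changes of 2.83 and 2.35 (edgeR adjusted p = 1.41e-06 and 6.48e-06). ZIF1, a vacuolar transporter of the metal chelator nicotianamine, rose by 2.70 and 2.63 (2.59e-07 and 4.69e-07). NRAMP3, the other vacuolar exporter, fell by 0.60 in wild type (0.0144) and was not called in clf (-0.37, adjusted p = 0.18). These are 2 higher and 1 lower of 12 in wild type and 2 higher of 12 in clf, with medians of -0.0387 and -0.0963. Over all genes tested 4.61% were called higher and 4.52% lower in wild type, and 0.752% higher in clf. The medians over all genes tested were 0.0075 and -0.0213.

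Between genotypes NRAMP3 was higher in clf on sufficient iron (log2 fold change 0.70, edgeR adjusted p = 0.00968) and on deficient iron (0.92, adjusted p = 0.00227). On sufficient iron FRO7, a plastid iron reductase, was also higher in clf (1.42, adjusted p = 0.014) and MEB1, a VIT family relative of the ER body, lower (-0.85, adjusted p = 0.0493). No other member of the list was called between genotypes. These are 2 higher and 1 lower of 12 on sufficient iron and 1 higher of 12 on deficient iron. Over all genes tested 3.59% were called higher and 1.32% lower on sufficient iron. On deficient iron 4.01% were called higher and 2.46% lower. VTL3 and VTL4, the remaining VTL genes, had 0 counts in all 12 libraries.

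The genes whose levels over the 12 libraries were most like each member were ranked by the root mean square difference of log2 CPM after centring each gene, which is 0 for identical profiles. For FER1 they were FER4 (0.44), HEMA1, which makes the precursor of heme and chlorophyll (0.47), and SAPX, a plastid ascorbate peroxidase (0.53), where the spread of FER1 itself is 1.70. For FER4 they were AT3G43670 (0.21), SAPX (0.30) and ENH1, a rubredoxin-like plastid protein (0.32), and for VTL5 CSD2, a copper and zinc superoxide dismutase (0.86), HEMA1 (0.89) and FER4 (0.94). VTL1 was nearest to YSL1, a transporter of iron bound to nicotianamine (0.35), FSD1, an iron superoxide dismutase (0.48), and AT1G49010 (0.49).

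NEET had as its nearest genes AT2G36885 (0.48), AT3G49160 (0.49) and AT5G59400 (0.61), against its own spread of 2.35. VTL2 was nearest to KEA5, a potassium antiporter (0.40), SP1L4 (0.41) and AT3G25640 (0.41), and KEA5 is the neighbour of NEET, 498 bases away on the opposite strand. The genes nearest to FER3 were NGA3, AT4G12000 and HVA22D (0.35, 0.36 and 0.36), against 1.13 to VTL2, 1.24 to FER4 and 1.37 to FER1. Its own spread of 0.91 includes the high library of wild type on sufficient iron. These distances describe the same 12 libraries and were not tested.

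Reads from overlapping genes limit a few of these values. FER1 is overlapped over 1334 bases by AT5G01595, a noncoding RNA on the opposite strand, and FER4 over 118 bases by AT2G40290 on the same strand. VIT1 shares 98 bases with RR14 and FER2 shares 8 bases with ENGase85B. The library kit keeps strand, but the strand setting of the counting is not given in the sources used here.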

How the data were processed

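Stranded mRNA libraries were made with a TruSeq kit, per the labels' protocols, and aligned with TopHat2 to TAIR10, per the submitters' processing notes. How reads were counted, with which strand setting and tool versions, is not given in the sources used here. Values in the deposited count table are whole and unscaled. The deposited FPKM values are the authors' counts divided by library total and by a gene length of theirs, which can be read back from counts over FPKM and is shorter than the TAIR10.1 transcript for all members but FER1.

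The members and lists were chosen with earlier results of these data known. Groups came from titles and genotype and treatment labels. Genes were filtered with filterByExpr (minimum count 10, minimum total 15), which kept 19148 of 32678, TMM-scaled, and fitted by edgeR 4.0.16 under R 4.3.3 (glmQLFit, glmQLFTest) with the means of the 4 groups over 12 libraries, which leaves 8 residual degrees of freedom. P-values were adjusted by Benjamini-Hochberg over all genes tested and called under 0.05. The scripts were tested on simulated data. CPM uses scaled library sizes; SE and 95% intervals are from the fit. Intervals of pooled counts are exact and, like the limit from 3 counts, cover counting error only, since reads carry no molecular identifiers. No replicate pair looked like a duplicate (chi-square per gene 5.65 or more).

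Named genes were all 9 members, up to 4 called genes per list and comparison with the smallest adjusted p plus PYE, ILR3, BTS, VTL3 and VTL4, the 3 nearest profiles of each tested member, and TOC1, LHY and CLF. Same-numbered replicates of different groups correlated from -0.628 to 0.641 in their deviations, so the numbers do not pair libraries over the series. Within clf across iron levels, and between genotypes on sufficient iron, all 3 pairs were above 0.1, but differently numbered pairs there reached 0.267 and 0.381. Alternatives were DESeq2 1.42.0, other scalings and filters, a replicate block, limma 3.58.1 on log2 of FPKM plus 1 or 0.1, fits without or with a term for the 4 libraries with the most TOC1, fits of 6 libraries, and leaving out each library, run for the 9 genes and the counts over all genes. Sequences and positions are from the RefSeq TAIR10.1 genome and annotation.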

Additional observations from a re-analysis of the deposited data

Results flagged for a closer look

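FER2 was higher on deficient iron in every wild-type library and lower on deficient iron in every clf library. Fitted without the filter on low counts, its log2 fold change of deficient over sufficient iron was 2.47 in wild type (edgeR adjusted p = 0.176) and -1.39 in clf (adjusted p = 0.625). Read as clf over wild type, it was 1.60 on sufficient iron (adjusted p = 0.508) and -2.26 on deficient iron (adjusted p = 0.211). The difference between the responses was -3.86 in that fit (edgeR adjusted p = 0.743) and -0.76 with limma on log2(FPKM + 1) (adjusted p = 0.47). No fit that tested FER2 called this difference. The iron response of FER2 in wild type was called by limma on log2(FPKM + 1) (0.54, adjusted p = 0.04). In that setting 84.4% of the genes called for iron in wild type were higher. The counts behind it are 5, 47, 18 and 11 over the 4 groups. Seed markers summed to at most 3.20 CPM in any library.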

How the results depend on the processing

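With 1 library left out, 5 to 6 members were called for iron in wild type, and the calls of NEET, FER1, FER4, VTL1 and VTL5 kept their side of the threshold in every fit that tested them. The iron response in clf gave 3 calls with the replicate block, 2 with the 6 libraries alone and 2 to 4 with 1 library left out. In clf VTL1 was gained in 3 of the 11 other fits (lowest adjusted p 0.0286), and VTL2 was lost in 6 of 11 (up to 0.157). The clf effect on deficient iron gave 2 calls with the replicate block (FER1 0.0759 and FER4 0.0732 lost), 1 with limma on log2(FPKM + 1), 2 with the 6 libraries alone and 1 to 4 with 1 library left out. The interaction gave 1 call (NEET) with DESeq2, without the 4 libraries with the most TOC1 and with a term for them. The block, not shown to pair libraries over the series, changed no other call. Without those 4 libraries the clf effect on sufficient iron turned to 0.51 for FER1, 0.34 for FER3, 0.10 for FER4 and 0.22 for VTL5. VTL5 there also turned to 0.0051 and 0.027 with limma on log2(FPKM + 1) and log2(FPKM + 0.1), and the interaction turned to -0.0069 for VTL1 with the first and -0.0017 for VTL5 with the second. With 1 library left out, FER3 ranged from -0.0552 to 0.2293 for iron in clf; the clf effect on sufficient iron ranged from -0.7118 to 0.1953 (FER1), -2.0466 to 0.2571 (FER3), -0.3034 to 0.0304 (FER4) and -0.5134 to 0.2065 (VTL5); VTL5 ranged from -1.0191 to 0.9782 on deficient iron; and the interaction ranged from -0.5775 to 0.2581 (VTL2) and -0.8144 to 1.1823 (VTL5). None of these was called, and the causes were not tested. Scaling by library totals moved the median of all genes by up to 0.25 (log2) for iron in wild type and changed the calls over all genes from 882 higher and 865 lower to 2490 and 438. In clf 147 genes were called lower on deficient iron, and 710 without the 4 libraries. Counts of under 20 in a group limit FER2, VIT1, VTL1 and VTL5.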
